A study of Mus musculus with 16 samples.

Results

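The immunity-related GTPases (IRG proteins) are GTP-binding proteins that mouse cells make in response to interferon gamma. The 6 IRG genes Iigp1, Igtp, Irgm1, Irgm2, Tgtp1 and Ifi47 were chosen by gene name, and each had a row among the 16094 genes of the table. They were followed across 16 mouse melanoma tumours. All 6 passed the filter on low values, a mean taken over all 16 tumours, and entered the tests.

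The tumours grew in mice from the melanoma cell line B16R2L. The cells carried the hairpin shMdk, which targets Mdk, the gene of the growth factor midkine, or the non-targeting hairpin shCtrl. Treatment began at a tumour volume of 100 mm3 and lasted 2 weeks, with 2 injections a week of anti-PD1 (clone RMP1-14, 10 mg/kg) or of a control IgG2a. The 4 groups, with 4 tumours each, were shMdk anti-PD1, shMdk IgG2a, shCtrl anti-PD1 and shCtrl IgG2a. All 16 tumours shared the parent line, a hairpin and an antibody schedule, and tumours without a hairpin or an antibody were not analysed here. Each line carried 1 hairpin, so an effect of Mdk loss and another difference between the 2 lines cannot be told apart. The labels used here name no strain, sex or age of the host mice. A hairpin lowers a transcript in the implanted cells and leaves the Mdk of host cells untouched.

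IRG proteins defend the cell from within. The effectors, among them Iigp1, Tgtp1 and Ifi47, coat the vacuoles in which parasites such as Toxoplasma live and break their membrane. The regulators Irgm1, Irgm2 and Igtp sit on the cell's own membranes and hold the effectors in the inactive, GDP-bound form there. Both kinds are transcribed when interferon gamma, secreted by T cells and NK cells, acts on a cell, whether a tumour cell or a macrophage.

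Regulators and effectors differ at 1 residue of the nucleotide-binding loop. Effectors have lysine there, as most GTPases do, and regulators have methionine, which gives the names GKS and GMS. The codons of this loop, read in frame from GENCODE M21 transcripts on chromosome 11, are shown because they sort the members into these kinds. Capitals mark the codon of the lysine or methionine.
Igtp: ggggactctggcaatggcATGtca
Irgm1: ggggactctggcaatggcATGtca
Irgm2: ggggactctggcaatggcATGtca
Tgtp1: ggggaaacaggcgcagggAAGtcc
Ifi47: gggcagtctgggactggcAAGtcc
The 24 bases were identical in the 3 GMS genes. Tgtp1 shared 15 of them and Ifi47 18 of them with the GMS genes. Iigp1 is a GKS effector, and its sequence was not used here.

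The stretches before the gene starts carry the letters of 2 motifs of the interferon gamma response. GAS, the gamma-activated site, was searched as TTCNNNGAA, and the core of ISRE, bound by IRF factors, as GAAA, any 2 bases and GAAA again, each on both strands of the 250 bases before the RefSeq start (GRCm38.p6). Of 32536 distinct windows of that length, 7.04% held GAS, 2.98% held the ISRE core and 0.329% held both. Igtp, Irgm2 and Tgtp1 held both, as did the related genes Tgtp2, Gm12185 and Gm12250. In the first 5 of these 6 genes the GAS letters started 11 bases before the ISRE core letters, with 2 bases between the motifs. The stretches are shown because the arrangement repeats between members, with motif letters in capitals and all on chromosome 11 of GRCm38.p6.
Igtp, chr11:58199500-58199531, plus strand: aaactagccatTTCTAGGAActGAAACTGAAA
Irgm2, chr11:58214891-58214922, plus strand: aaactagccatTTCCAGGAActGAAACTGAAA
Tgtp1, chr11:48992314-48992345, minus strand: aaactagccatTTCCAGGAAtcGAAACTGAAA
Tgtp2, chr11:49064273-49064304, minus strand: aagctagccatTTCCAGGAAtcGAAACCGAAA
Gm12185, chr11:48927248-48927279, minus strand: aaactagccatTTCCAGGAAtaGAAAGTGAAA
These 5 stretches had the same base at 26 of 32 positions. GAS and ISRE letters in this spacing were found in 5 of the 32536 windows (0.0154%), all 5 of them shown here. The spacing was read off these promoters before it was searched for, so the count is a description. The windows of Igtp and Irgm2, and those of Tgtp2 and Gm12185, were alike well beyond these stretches. The 5 stretches are therefore not independent of each other. For Irgm2, Tgtp2, Gm12185 and Gm12250, the bases after the RefSeq start did not occur unbroken in a GENCODE M21 transcript of the gene.

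Irgm1 had no GAS match in its window and 2 overlapping matches of the ISRE core, 30 and 24 bases before the start. Its full window (chr11:48871421-48871670, minus strand) is shown for comparison.
Irgm1: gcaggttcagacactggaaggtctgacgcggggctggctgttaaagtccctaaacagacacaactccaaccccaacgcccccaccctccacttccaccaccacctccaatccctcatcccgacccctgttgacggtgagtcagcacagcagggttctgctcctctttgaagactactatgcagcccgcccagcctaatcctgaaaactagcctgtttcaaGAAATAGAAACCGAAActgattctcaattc
No match of either motif lay in the window of Ifi47 (chr11:49076337-49076586, plus strand), nor in those of 9930111J21Rik1, 9930111J21Rik2 and Gm5431. A match of letters is no bound site, and a window without one says only that these letters were not in it.

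**Figure D1:**
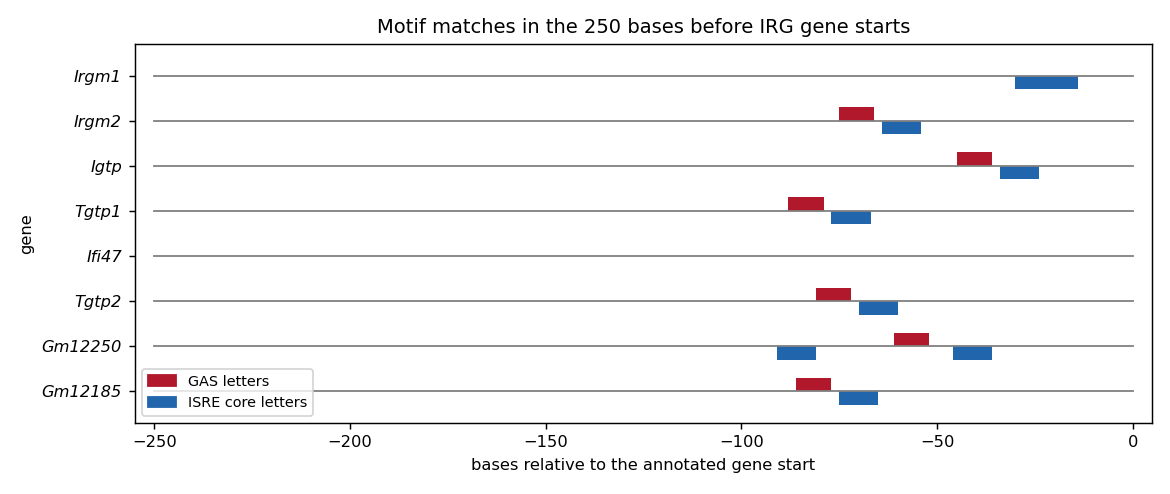
Positions of the GAS letters (red) and ISRE core letters (blue) in the 250 bases before the RefSeq start of 5 members and 3 related genes, with bases relative to the start on the horizontal axis. In Irgm2, Igtp, Tgtp1, Tgtp2 and Gm12185 the GAS block starts 11 bases before the ISRE block. Irgm1 has 2 overlapping ISRE matches drawn as 1 block, and Ifi47 has none.

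RNA was counted from the 3′ ends of transcripts, with 5686405 to 8886334 reads per tumour. The deposited values are read counts divided by a size factor per tumour, called normalised counts below. Mdk, the targeted gene (chromosome 2), had 312, 290, 147 and 96.5 normalised counts in shMdk anti-PD1 tumours and 150, 203, 323 and 121 in shMdk IgG2a tumours. It had 925, 606.5, 1104 and 855.5 in shCtrl anti-PD1 tumours and 601, 727, 959 and 1161 in shCtrl IgG2a tumours. The highest shMdk tumour lay below the lowest shCtrl tumour, and Mdk fell by 2.16 ± 0.36 on the log2 scale under IgG2a (limma adjusted p = 0.00428) and by 2.17 ± 0.36 under anti-PD1 (limma adjusted p = 0.00166). In 5 tumours, log2 values climbed with the GC content of the 3′ end, with a slope of 0.105 to 0.199 log2 units per 10% GC, against -0.111 to 0.00797 in the other 11. These 5 were shMdk anti-PD1 tumour 1, shMdk IgG2a tumours 3 and 4, and shCtrl IgG2a tumours 1 and 2. Gm42418, a gene model over ribosomal RNA sequence, took 3.17% of reads in shMdk IgG2a tumour 1 and 4.47% in shCtrl anti-PD1 tumour 2, against 0.880% to 1.56% elsewhere.

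Expression of 5 of the 6 IRG genes rose with Mdk knockdown under IgG2a, where 1.63% of all genes tested were called higher, and 5 of 6 under anti-PD1, where 4.93% were. The increase was between 2.10-fold (Irgm1 under anti-PD1) and 18.9-fold (Tgtp1 under IgG2a) in the linear model. Tgtp1 averaged only 1.29 normalised counts in shCtrl IgG2a tumours. Irgm2, a GMS regulator, was higher on average in shMdk tumours in both arms but did not pass. Anti-PD1 moved none of the 6 past the threshold within either line. Fold changes are differences of mean log2(normalised count + 1), with limma standard errors (SE) and Benjamini-Hochberg adjusted p-values over all 14672 genes tested, and a gene passed at an adjusted p under 0.05.

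**Figure D2:**
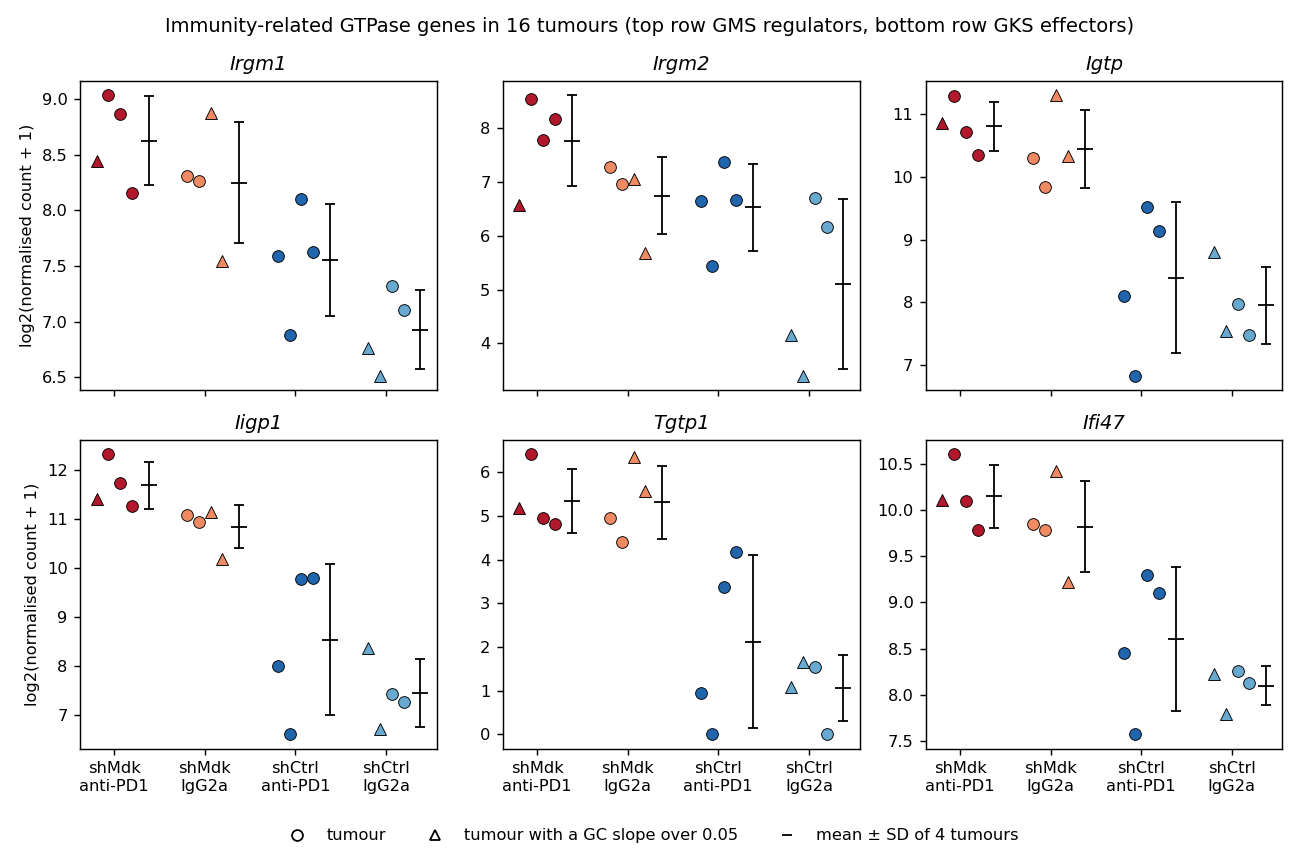
Level of each IRG gene, as log2(normalised count + 1), in every tumour of the 4 groups, with the GMS regulators in the top row and the GKS effectors in the bottom row; bars give the mean ± SD of 4 tumours, and triangles mark tumours with a GC slope over 0.05. The shMdk tumours sit above all shCtrl tumours under the same antibody for each gene but Irgm2.

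Among the effectors, Iigp1 codes for a GTPase that assembles on parasite vacuoles and lies on chromosome 18. It had 2716, 5158, 3431 and 2464 normalised counts in shMdk anti-PD1 tumours and 2171, 1977, 2269 and 1170 in shMdk IgG2a tumours. In shCtrl anti-PD1 tumours it had 254, 96.1, 877 and 885, and in shCtrl IgG2a tumours 331, 103, 172 and 152. Every shMdk tumour exceeded every shCtrl tumour, whichever the antibody. In the bulk tumours analysed here, more cells that express a gene and more RNA per cell cannot be told apart. Under IgG2a, Iigp1 averaged 1897 ± 499.5 in shMdk and 189.7 ± 98.5 in shCtrl tumours (SD, n = 4 each), a log2 fold change of 3.40 ± 0.54 (SE, limma adjusted p = 0.00363). Under anti-PD1 it averaged 3442 ± 1215 in shMdk and 528 ± 413 in shCtrl tumours, a log2 fold change of 3.15 ± 0.54 (limma adjusted p = 0.00220). Without the 2 tumours high in Gm42418, which include shCtrl anti-PD1 tumour 2, it was 2.50 ± 0.44 (limma adjusted p = 0.00470).

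Tgtp1 (chromosome 11, 48985329 to 48992246, minus strand, RefSeq on GRCm38.p6), also known as Irgb6, codes for one of the effectors that reach a vacuole early. It had 35.0, 84.2, 29.7 and 27.1 normalised counts in shMdk anti-PD1 tumours and 30.0, 20.01, 79.6 and 46.3 in shMdk IgG2a tumours. In shCtrl anti-PD1 tumours it had 0.920, 0, 9.30 and 17.1, and in shCtrl IgG2a tumours 1.13, 2.13, 1.90 and 0. The lines did not overlap, although the shCtrl IgG2a group as a whole held only 5 reads of Tgtp1, against 177 in the shMdk IgG2a group. Tgtp1 passed the filter on low values through the shMdk tumours. It averaged 44.0 in each shMdk group, against 6.82 in shCtrl anti-PD1 and 1.29 in shCtrl IgG2a tumours. The log2 fold change of knockdown was 4.24 ± 0.76 under IgG2a (limma adjusted p = 0.00614) and 3.21 ± 0.76 under anti-PD1 (limma adjusted p = 0.0162). In edgeR on recovered reads it was 4.99 under IgG2a and 2.57 under anti-PD1. Leaving out single tumours gave limma values of 2.51 (without shCtrl anti-PD1 tumour 2) to 3.898 (without shCtrl anti-PD1 tumour 4) under anti-PD1. Under anti-PD1 the call was lost without shMdk anti-PD1 tumour 2 (adjusted p = 0.0655), without shCtrl anti-PD1 tumour 1 (0.0592) and without the 5 tumours of high GC slope (0.0640). The last 300 transcript bases of Tgtp1 and Tgtp2 shared 100% of their 50-base words, so reads of the 2 genes may have been split between them. The GENCODE M21 record of Gm12185 also spans Tgtp1 on the same strand, and how shared reads were assigned is not given in the sources used here.

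Ifi47 (chromosome 11, 49076587 to 49096987, plus strand), also named Irgd, codes for a further GKS protein found on vacuoles. It had 1099.7, 1559, 1094 and 878 normalised counts in shMdk anti-PD1 tumours and 918, 881, 1375 and 595 in shMdk IgG2a tumours. The shCtrl anti-PD1 tumours had 349, 189, 628 and 549, and the shCtrl IgG2a tumours 298, 221, 304 and 278. The lines did not overlap within an antibody arm, while the lowest shMdk IgG2a tumour lay under the highest shCtrl anti-PD1 tumour. The log2 fold change of knockdown was 1.72 ± 0.31 under IgG2a (limma adjusted p = 0.00660) and 1.54 ± 0.31 under anti-PD1 (limma adjusted p = 0.00611). The shCtrl IgG2a tumours differed by a factor of 1.38 from lowest to highest for Ifi47, against 10.7 for Irgm2.

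Among the regulators, Igtp (chromosome 11, 58199556 to 58207592, plus strand), also named Irgm3, codes for the GMS protein of the endoplasmic reticulum and lipid droplets. It had 1865, 2513, 1684 and 1309 normalised counts in shMdk anti-PD1 tumours and 1269.55, 911, 2539 and 1294 in shMdk IgG2a tumours. The shCtrl anti-PD1 tumours had 272, 113, 732 and 563, and the shCtrl IgG2a tumours 445, 185, 251 and 177. Every shMdk tumour again exceeded every shCtrl tumour. Knockdown changed Igtp by 2.50 ± 0.46 on the log2 scale under IgG2a (limma adjusted p = 0.00744) and by 2.41 ± 0.46 under anti-PD1 (limma adjusted p = 0.00434).

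Irgm1 (chromosome 11, 48865245 to 48871420, minus strand) codes for the GMS protein of the Golgi and lysosomes, whose loss in mice weakens resistance to mycobacteria. It had 348, 524, 464 and 284 normalised counts in shMdk anti-PD1 tumours and 317, 306, 469 and 186 in shMdk IgG2a tumours. In shCtrl anti-PD1 tumours it had 192, 117, 274 and 197, and in shCtrl IgG2a tumours 108, 90.6, 159 and 137. Within an arm the lines did not overlap, but the gap was narrow, with 284 in the lowest shMdk anti-PD1 tumour and 274 in the highest shCtrl anti-PD1 tumour. The log2 fold change was 1.32 ± 0.29 under IgG2a (limma adjusted p = 0.0231) and 1.07 ± 0.29 under anti-PD1 (limma adjusted p = 0.0355). Its call was lost without some single tumours: under IgG2a without shMdk IgG2a tumours 1 or 3 or shCtrl IgG2a tumours 1 or 2 (adjusted p = 0.0522 to 0.104), and under anti-PD1 without shMdk anti-PD1 tumours 1, 2 or 3 or shCtrl anti-PD1 tumours 1, 2 or 4 (adjusted p = 0.0709 to 0.121). Without the 2 tumours high in Gm42418 it had an adjusted p of 0.107 under anti-PD1.

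Irgm2 (chromosome 11, 58214977 to 58222783, plus strand) codes for a GMS protein of the Golgi. It had 94.2, 367, 218 and 284 normalised counts in shMdk anti-PD1 tumours and 154, 123, 131 and 50.5 in shMdk IgG2a tumours. In shCtrl anti-PD1 tumours it had 99.3, 42.0, 164 and 101, and in shCtrl IgG2a tumours 16.9, 9.59, 103 and 70.2. Every pair of groups overlapped. The log2 fold change of knockdown was 1.63 ± 0.63 under IgG2a (95% interval 0.30 to 2.97, limma adjusted p = 0.332) and 1.23 ± 0.63 under anti-PD1 (-0.10 to 2.56, limma adjusted p = 0.332). The GENCODE M21 record of Irgm2 starts within Igtp on the same strand, so the split of reads between them depends on an annotation that the sources used here do not give.

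The Irgm2 values followed the GC slope of the libraries. After each group's mean was subtracted, log2 Irgm2 and the GC slope had r = -0.81 over 16 tumours, against -0.36 for Irgm1, 0.31 for Igtp, 0.28 for Tgtp1, -0.06 for Ifi47 and 0.03 for Iigp1. The 2 lowest Irgm2 values of all, 16.9 and 9.59, were those of shCtrl IgG2a tumours 1 and 2, and the lowest values of the shMdk anti-PD1 and shMdk IgG2a groups, 94.2 and 50.5, also came from tumours with a slope over 0.05. GC content of the last 300 transcript bases was 38% for Irgm2, 34.7% for Irgm1, 40.7% for Igtp, 42.3% for Tgtp1, 39.3% for Ifi47 and 26.3% for Iigp1, around a median of 42.3% over 9764 genes. With the slope as a covariate, Irgm2 changed by 2.00 ± 0.39 under IgG2a (limma adjusted p = 0.00694) and by 1.77 ± 0.39 under anti-PD1 (limma adjusted p = 0.00909). Without the 5 tumours, the log2 fold changes were 0.69 ± 0.47 under IgG2a, where 2 tumours a group remained (limma adjusted p = 0.583), and 1.62 ± 0.36 under anti-PD1 (limma adjusted p = 0.0271). With the covariate, 2.39% of all genes were called higher under IgG2a and 6.41% under anti-PD1, and without the 5 tumours 0.32% and 3.34%. Both fits were chosen after the data were seen, and they place Irgm2 under IgG2a on opposite sides of the threshold.

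**Figure D3:**
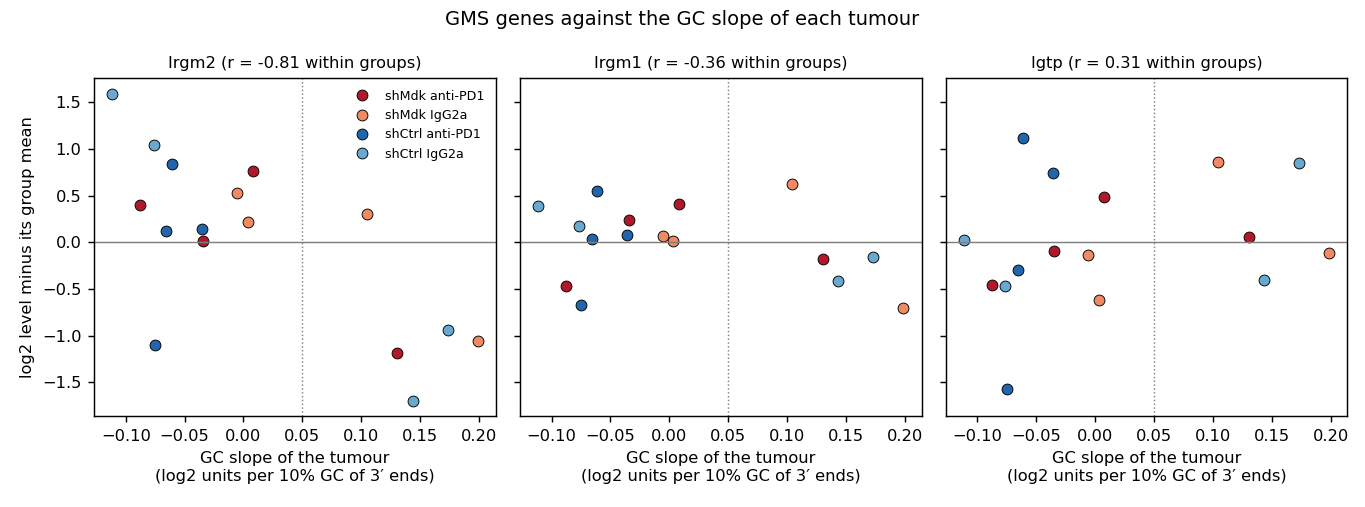
Log2 level of each of the 3 GMS genes minus its group mean, against the GC slope of the tumour in log2 units per 10% GC, for 16 tumours coloured by group; the dotted line marks the slope of 0.05. Irgm2 falls along the slope (r = -0.81), while Irgm1 (r = -0.36) and Igtp (r = 0.31) are spread around their means.

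The genes that passed were Iigp1, Igtp, Irgm1, Tgtp1 and Ifi47 in both arms. For these 5 genes the groups compared did not overlap, and 4.16% of all genes under IgG2a and 8.23% under anti-PD1 were likewise higher without overlap. The median log2 fold change of the 6 was 2.11 under IgG2a and 1.98 under anti-PD1, against -0.01 and -0.02 for all genes. By fold change in the main fit, the members kept one order in both arms, which was Tgtp1, Iigp1, Igtp, Ifi47, Irgm2 and Irgm1 with the largest change first, and neighbours in this order had overlapping 95% intervals. With the GC slope as a covariate, Irgm2 stood above Ifi47 in both arms (2.00 against 1.73 under IgG2a, 1.77 against 1.56 under anti-PD1). Without the 5 tumours of high GC slope, Irgm2 stood below Irgm1 under IgG2a (0.69 against 1.07). Without the 5 tumours of high GC slope no member passed under IgG2a, where 0.32% of all genes were still called higher. Iigp1 then changed by 3.67 ± 0.79 (limma adjusted p = 0.0635), Igtp by 2.34, Irgm1 by 1.07, Tgtp1 by 3.91 and Ifi47 by 1.63 on the log2 scale, with adjusted p-values up to 0.185 and 2 tumours left in each IgG2a group. Under anti-PD1 the count was 3 in place of 5 without shMdk anti-PD1 tumour 2, and again 3 without shCtrl anti-PD1 tumour 1, with Irgm1 and Tgtp1 lost both times. Without the 5 tumours of high GC slope it was 5 under anti-PD1, with Irgm2 gained and Tgtp1 lost.

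**Figure D4:**
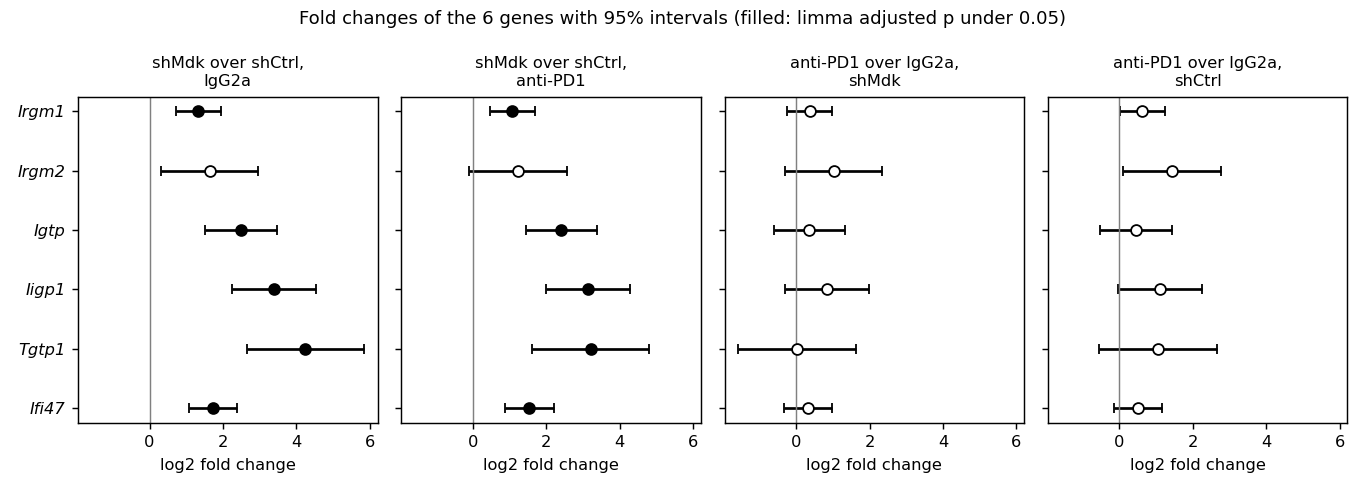
Log2 fold changes of the 6 IRG genes with 95% intervals in 4 comparisons, the knockdown effect under each antibody and the anti-PD1 effect in each line; filled points passed at a limma adjusted p under 0.05. Filled points appear in the knockdown panels for each gene but Irgm2, and no point is filled in the anti-PD1 panels.

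Some marker genes of immune cells were also called higher with knockdown. Ptprc, the leukocyte gene for CD45, had 128 to 292 normalised counts in shMdk anti-PD1, 87.3 to 177 in shMdk IgG2a, 12.01 to 53.9 in shCtrl anti-PD1 and 6.66 to 34.9 in shCtrl IgG2a tumours. Its log2 fold change was 2.88 ± 0.51 under IgG2a (limma adjusted p = 0.00614) and 2.66 ± 0.51 under anti-PD1 (limma adjusted p = 0.00445). The summed level of 8 macrophage and monocyte markers (Adgre1, Cd68, Csf1r, Lyz2, Itgam, Mrc1, Ly6c2 and Ccr2) was 2539 to 5526 in shMdk anti-PD1 and 1120 to 2096 in shMdk IgG2a tumours, against 275 to 1127 in shCtrl anti-PD1 and 401 to 886 in shCtrl IgG2a tumours. Of these 8, 3 were called higher with knockdown under IgG2a and 8 under anti-PD1.

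The sum of 6 T cell markers of 8 listed was 117 to 343 in shMdk anti-PD1, 87.3 to 195 in shMdk IgG2a, 37.7 to 88.6 in shCtrl anti-PD1 and 27.7 to 75.4 in shCtrl IgG2a tumours, and 0 of 6 were called under IgG2a and 4 under anti-PD1. Of 5 listed NK cell markers, Ncr1 and Klrb1c were not analysed here, which left Klrk1, Nkg7 and Prf1. The sum of these 3 was 72.8 to 153 in shMdk anti-PD1, 48.2 to 74.5 in shMdk IgG2a, 4.60 to 78.1 in shCtrl anti-PD1 and 0.923 to 23.6 in shCtrl IgG2a tumours, with 2 of 3 called higher in each arm. Both highest shCtrl anti-PD1 sums came from tumour 2 and rested on 1 gene each: Lck had 87.1 there with Cd3d, Cd3e, Cd8a and Trbc2 at 0, and Klrk1 had 78.1 with Nkg7 and Prf1 at 0. In the other 3 tumours of that group the NK cell sum was 4.60 to 15.3. Cd3e was at 0 in 5 of 8 shCtrl tumours, Prf1 in 4, Cd8a in 3, Trbc2 and Klrk1 in 2 each, and Cd3d, Nkg7, Adgre1 and Itgam in 1 each, while no listed marker was at 0 in a shMdk tumour. None of the 7 melanoma markers was called in either arm, and their sum of 107394 to 143030 in shMdk anti-PD1 and 126434 to 146591 in shMdk IgG2a tumours, against 134737 to 182973 in shCtrl anti-PD1 and 151635 to 187437 in shCtrl IgG2a tumours, fits the labelled tissue. Under IgG2a every shMdk sum lay below every shCtrl sum, while under anti-PD1 the ranges overlapped. These sums rested largely on Dct, with means of 78515 in shMdk IgG2a and 104854 in shCtrl IgG2a tumours. Each of the 7 markers alone overlapped between these 2 groups. Under anti-PD1, 2 of 3 fibroblast and 3 of 4 endothelial markers were also called higher with knockdown, and 0 of 3 and 0 of 4 under IgG2a. Neutrophil (3), dendritic cell (2) and B cell (1) markers gave 0 calls in both arms. The part of immune cells in the IRG levels was not tested.

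Anti-PD1 against IgG2a asks whether PD1 blockade itself changed the IRG genes. In shMdk tumours the log2 fold changes were 0.84 for Iigp1, 0.36 for Igtp, 0.38 for Irgm1, 1.02 for Irgm2, 0.02 for Tgtp1 and 0.33 for Ifi47, with limma adjusted p-values of 0.495 to 0.993. None of the 6 was called by limma, edgeR or DESeq2, which called 0.0341%, 0.0545% and 1.7% of all genes in either direction. At an unadjusted limma p under 0.05, 0 of the 6 passed, against 12.4% of all genes. Iigp1 was the one member whose groups did not overlap, at 2464 or more in shMdk anti-PD1 and 2269 or less in shMdk IgG2a tumours, which 4.42% of all genes also showed. Its 95% interval, -0.30 to 1.99, still included a decrease.

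In shCtrl tumours the log2 fold changes of anti-PD1 against IgG2a were 1.10 for Iigp1, 0.44 for Igtp, 0.62 for Irgm1, 1.42 for Irgm2, 1.05 for Tgtp1 and 0.51 for Ifi47, with limma adjusted p-values of 0.798 to 0.819. None was called by limma, edgeR or DESeq2, which called 0%, 0% and 0.0479% of all genes. At an unadjusted p under 0.05, Irgm1 and Irgm2 passed, as 3.79% of all genes did. Without the 5 tumours of high GC slope, which include shCtrl IgG2a tumours 1 and 2, Irgm2 had 0.10 ± 0.41 and Irgm1 0.34 ± 0.30 (SE). With the slope as a covariate they had 0.65 ± 0.41 and 0.48 ± 0.29. Iigp1, Igtp and Tgtp1 had larger values than in the main fit in both cases (1.19, 0.67 and 1.35 without the 5 tumours), and no member was called. Irgm2 spread by a factor of 10.7 in the shCtrl IgG2a group (9.59 to 103) and of 3.89 in the anti-PD1 group (42.0 to 164). For Iigp1 the wider spread lay between tumours of the anti-PD1 group: tumours 3 and 4 had 877 and 885 normalised counts, against 254 and 96.1 in tumours 1 and 2. For the other 5 genes as well, tumours 3 and 4 held the 2 highest values of this group. Tumours 3 and 4 also had the higher values of Ptprc (52.1 and 53.9, against 23.0 and 12.01 in tumours 1 and 2) and of the macrophage and monocyte sum (1127 and 1032, against 576 and 275). Tumour 2, where every member was lowest within this group, was the one with 4.47% of reads on Gm42418. Without it, the log2 fold changes were 1.74 for Iigp1, 0.97 for Igtp, 0.85 for Irgm1, 1.79 for Irgm2, 1.76 for Tgtp1 and 0.85 for Ifi47, and still none was called. Over the 8 fits that each left out 1 shCtrl tumour, Iigp1 ranged between 0.68 and 1.74, Igtp between 0.07 and 0.97 and Tgtp1 between 0.37 and 1.76.

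The anti-PD1 effect in shMdk minus that in shCtrl tumours was negative for all 6 genes, at -1.03 ± 1.07 for Tgtp1 to -0.08 ± 0.66 for Igtp on the log2 scale. No member was called by limma, edgeR or DESeq2, each of which called 0% of all genes, and 0 members had an unadjusted limma p under 0.05, against 3.45% of all genes. The 95% interval ran from -3.29 to 1.23 for Tgtp1 and from -1.87 to 1.37 for Iigp1. For each gene but Tgtp1 at least 1 alternative setting gave a positive value.

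A further comparison set shMdk anti-PD1 against shCtrl IgG2a tumours, which differ in both hairpin and antibody and also stand in the comparisons above. All 6 members were called higher, against 6.39% of all genes, and they included Irgm2 (2.65 ± 0.63, limma adjusted p = 0.0119). The log2 fold changes were 4.27 for Tgtp1, 4.24 for Iigp1, 2.86 for Igtp, 2.05 for Ifi47 and 1.70 for Irgm1. Groups did not overlap for 5 of the 6, against 9.39% of all genes, with 1 shMdk anti-PD1 tumour at 94.2 and 1 shCtrl IgG2a tumour at 103 normalised counts of Irgm2. Without the 5 tumours of high GC slope, the members had limma adjusted p-values of 0.00471 (Iigp1) to 0.0450 (Irgm2, at 1.73 ± 0.43). The share of all genes called in that fit is not given here.

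Setting shMdk IgG2a against shCtrl anti-PD1 tumours compares knockdown alone with the antibody alone. The log2 fold changes were 3.19 for Tgtp1, 2.30 for Iigp1, 2.05 for Igtp, 1.21 for Ifi47, 0.70 for Irgm1 and 0.21 for Irgm2. None passed in limma (adjusted p = 0.0694 to 0.894), where 0.15% of all genes did in either direction, and none in edgeR, where 0.157% did. DESeq2 called Igtp, Tgtp1 and Ifi47 and 1.67% of all genes, and 5 of the 6 had an unadjusted limma p under 0.05, as 13% of all genes had. Groups did not overlap for Iigp1, Igtp and Tgtp1, against 4.59% of all genes. In limma, 2 genes passed without shCtrl anti-PD1 tumour 3 (Iigp1 and Igtp), 2 without shCtrl anti-PD1 tumour 4 (Iigp1 and Tgtp1) and 1 without shCtrl IgG2a tumour 1 (Igtp).

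Ordered by mean level, Iigp1, Igtp, Irgm1, Irgm2 and Ifi47 ran from shMdk anti-PD1 through shMdk IgG2a and shCtrl anti-PD1 to shCtrl IgG2a. No pair of neighbours in this order differed by the limma test for these 5 genes. Tgtp1 averaged 44.0 ± 27.0 in shMdk anti-PD1 and 44.0 ± 26.1 in shMdk IgG2a tumours, then 6.82 ± 8.01 in shCtrl anti-PD1 and 1.29 ± 0.962 in shCtrl IgG2a tumours (SD, n = 4). For this gene the step between shMdk anti-PD1 and shCtrl anti-PD1 was the one between neighbours that passed.

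Over the 16 tumours, log2 levels of member pairs correlated at r = 0.597 (Irgm2 and Tgtp1) to 0.980 (Iigp1 and Ifi47). After group means were subtracted, r ran from 0.175 (Irgm2 and Tgtp1) to 0.904 (Iigp1 and Ifi47). Irgm2 stood lowest against the other 5, with a mean within-group r of 0.433, and Ifi47 highest with 0.792. These values share tumours, groups and depth and are descriptions. Within tumours, log2 Iigp1 minus log2 Igtp averaged 0.88 ± 0.23 in shMdk anti-PD1, 0.40 ± 0.65 in shMdk IgG2a, 0.15 ± 0.40 in shCtrl anti-PD1 and -0.51 ± 0.26 in shCtrl IgG2a tumours (SD, n = 4, not tested).

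The genes most like the 6 members, ranked by mean r over 16 tumours among 14666 genes, were Irf1 (0.924), Gbp2 (0.919), H2-Aa (0.914), Gm12185 (0.911) and Gbp4 (0.910). Within groups their mean r was 0.797, 0.778, 0.753, 0.745 and 0.723. Irf1 codes for an interferon-induced transcription factor, Gbp2 and Gbp4 for guanylate-binding proteins that act on the same vacuoles, and H2-Aa for a chain of MHC class II. Irf1 averaged 1525 ± 303 in shMdk anti-PD1, 1005 ± 422 in shMdk IgG2a, 402 ± 203 in shCtrl anti-PD1 and 239.7 ± 27.0 normalised counts in shCtrl IgG2a tumours (SD, n = 4).

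Other genes of the IRG family were taken from a list of names, 10 of which were in the table and 9 passed the filter. With knockdown, 6 of 9 were called higher under IgG2a and 7 of 9 under anti-PD1, with median log2 fold changes of 2.56 and 2.61, and 0 were called lower. Gm12250 is named Irgb10 in RefSeq, is listed as a processed pseudogene in GENCODE M21, and codes for a protein known for breaking bacterial membranes. It had 111, 197, 133 and 91.4 normalised counts in shMdk anti-PD1 tumours and 86.8, 71.9, 188 and 108 in shMdk IgG2a tumours. In shCtrl anti-PD1 tumours it had 6.44, 4.50, 41.8 and 57.5, and in shCtrl IgG2a tumours 13.5, 3.20, 5.71 and 4.62. No shCtrl tumour reached the lowest shMdk tumour, and the log2 fold change was 3.95 ± 0.63 under IgG2a (limma adjusted p = 0.00363) and 2.85 ± 0.63 under anti-PD1 (limma adjusted p = 0.0110).

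Gm4951, F830016B08Rik, Gm12185 and 9930111J21Rik2 passed in both arms, with log2 fold changes of 2.56, 2.38, 3.15 and 1.17 under IgG2a and 2.27, 3.14, 3.17 and 1.33 under anti-PD1. Tgtp2, the near copy of Tgtp1, passed under IgG2a (2.94 ± 0.66, limma adjusted p = 0.0278) and had 2.18 ± 0.66 under anti-PD1 (limma adjusted p = 0.0646). Gm4841 and Gm5431 passed under anti-PD1 (4.87 ± 0.84 and 2.61 ± 0.42) and had 3.18 ± 0.84 and 1.24 ± 0.42 under IgG2a. Irgq, a distant relative on chromosome 7, had log2 fold changes of -0.20 and -0.19 with 95% intervals of -0.79 to 0.38 under IgG2a and -0.78 to 0.40 under anti-PD1. Its values also followed the GC slope within groups (r = 0.77). With the slope as a covariate it had -0.34 ± 0.20 under IgG2a and -0.39 ± 0.20 under anti-PD1, and it was not called. In 9930111J21Rik2, F830016B08Rik and Gm12185, 16.3%, 21.5% and 11.9% of the 50-base words of the last 300 transcript bases also occurred in other genes, so their counts are less certain. 9930111J21Rik1 stayed below the filter, with 0 to 5.08 normalised counts. Gm12185 and F830016B08Rik passed it through the shMdk tumours. Their means were 4.32 and 4.99 in shCtrl anti-PD1 and 1.03 and 4.22 in shCtrl IgG2a tumours.

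**Figure D5:**
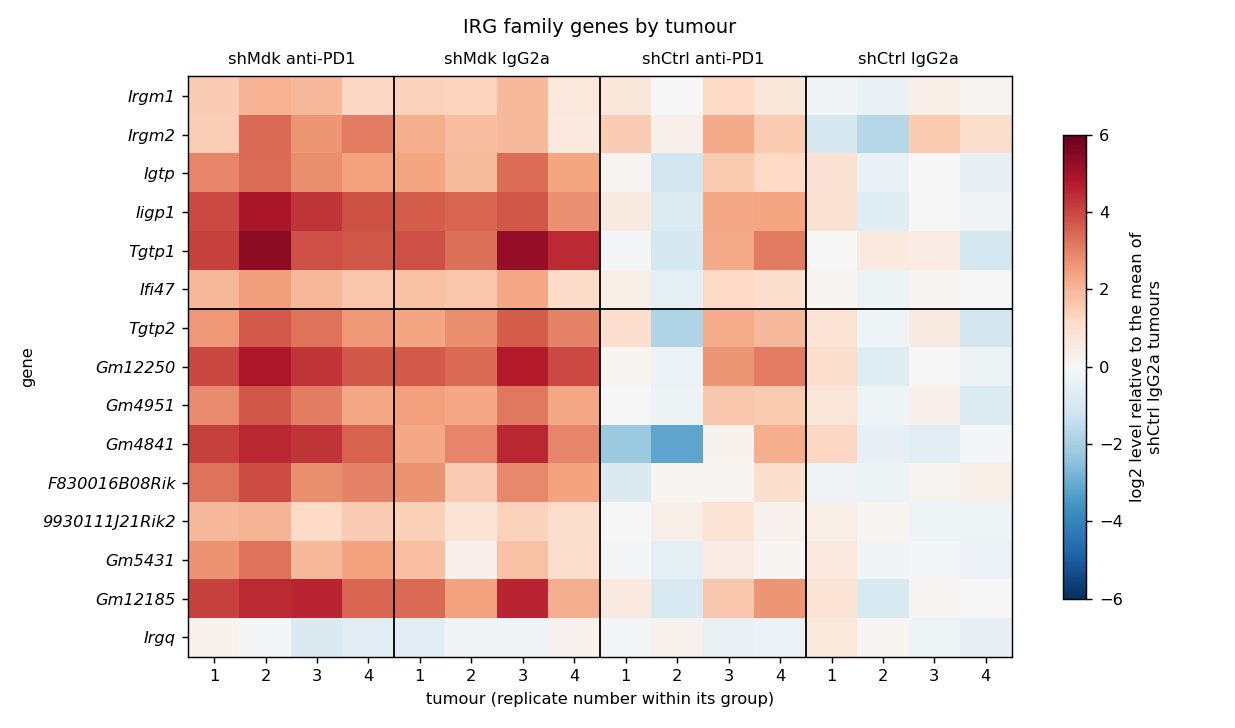
Log2 level of the 6 members (above the line) and 9 other IRG family genes (below it) in each tumour, relative to the mean of the 4 shCtrl IgG2a tumours, on a colour scale of -6 to 6. The shMdk columns are red for every gene but Irgq, and among shCtrl anti-PD1 tumours numbers 3 and 4 are redder than 1 and 2 for most genes.

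Genes of the interferon gamma receptor and signalling list were called in part. Of 13 tested (Ifng itself was not analysed here), 6 were called higher with knockdown under IgG2a and 8 under anti-PD1, with medians of 0.61 and 1.27. Transcription regulators among those called were Ciita at 3.21 and 3.12, Irf8 at 2.49 and 2.96, Irf1 at 1.98 and 2.05 and Batf2 at 1.80 and 1.52 on the log2 scale under IgG2a and anti-PD1. The receptor gene Ifngr1 and the kinase gene Jak2 passed under anti-PD1 (0.81 ± 0.19 and 0.87 ± 0.19) and had 0.19 and 0.55 under IgG2a. Ifngr2, Jak1, Socs1, Ptpn2 and Pias1 passed in neither arm.

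The guanylate-binding proteins (GBPs), which act beside the IRG proteins, were called higher with knockdown for 5 of 8 genes under IgG2a and 7 of 8 under anti-PD1, with medians of 2.86 and 2.74. Gbp4 had the largest change (4.76 and 4.13), and Gbp2, Gbp5 and Gbp8 lay between 2.99 and 3.77. Reads of near-identical GBP genes may be shared. Of 8 genes of the type I interferon pathway, 0 passed under IgG2a and 3 under anti-PD1, namely Irf7 (1.72), Stat2 (1.25) and Ifnar2 (0.64), and Irf7 under IgG2a had 1.21 (limma adjusted p = 0.0561). The autophagy conjugation genes, which guide IRG proteins to vacuoles, and the ubiquitin adaptors gave 0 calls of 13 in both arms, with medians of -0.02 and 0.08. For anti-PD1 against IgG2a, 0 genes of these 5 lists were called in either line.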

How the data were processed

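RNA of 16 tumours was read from 3′ ends after oligo-dT priming with strand kept, from 500 ng of RNA with integrity numbers of 5.8 to 9.2, per the labels' protocols. The submitters' processing notes name the build GRCm38 (mm10), TopHat2 2.0.10 and Bowtie 1.0.0, then HTSeq, SAMtools 0.1.19, DESeq2 and FastQC 0.11.0. The deposited signal is the read count of each gene divided by a size factor per tumour, so gene length does not scale it. Whole reads were recovered from 100% of values within 0.001, with 5686405 to 8886334 reads per tumour, and 0 columns of per-sample values were left unused. The annotation the authors counted on is not given in the sources used here, and GENCODE M21 and RefSeq (GRCm38.p6) were used for names, positions and sequences only.

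The test was limma 3.58.1 (R 4.3.3) on log2(normalised count + 1), with group means, variances moderated with a trend, all 16 tumours and 12 degrees of freedom for the residuals. Genes with a mean of at least 5 over all 16 tumours were kept (14672 of 16094), so a gene high in 1 line alone could pass. The p-values were adjusted by Benjamini-Hochberg within each of 7 comparisons, with a threshold of 0.05. The procedure was tested on simulated data. Alternatives were edgeR 4.0.16 (quasi-likelihood) and DESeq2 1.42.0 on recovered reads, TMM scaling, pseudocounts of 0.5 and 5, no filter or a mean of 20, the compared groups alone and leaving out each tumour. Other fits chosen after the data were seen left out the 5 tumours with a GC slope over 0.05, left out the 2 tumours with over 2% of reads on Gm42418, or took the GC slope as a covariate. The GC slope is the slope of a tumour's log2 values on the GC content of the last 300 transcript bases, over 9764 genes. Samples are separate tumours per the labels, and tumour numbers only name them.

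The members, lists and tests were chosen with earlier results of these data known. Named genes were the 6 members, Mdk, the listed IRG family genes, up to 4 passing genes with the largest change per list, the cell markers, and the 5 genes with the highest mean r with the members. Jak2, Ifngr1, Irf7, other list genes given as not passing and Gm42418 were named outside this rule, after their values were seen.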

Additional observations from a re-analysis of the deposited data

Results flagged for a closer look

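In 64 groups of 4 tumours (16 genes, the 6 members among them), 4 groups held a tumour whose gap to the nearest other exceeded Dixon's 95% critical share of the group's range, which chance gives in about 1 of 20 groups. Among the members it was Tgtp1, with 84.2 normalised counts in shMdk anti-PD1 tumour 2 against 27.1 to 35.0 in the other 3 tumours of its group. Among the related genes it was Gm4951 in shMdk IgG2a tumour 3, with 361 normalised counts against 199 to 218. Gm4841 stood apart in the same tumour, with 204 against 44.5 to 68.3. Gm4841 also stood apart in shCtrl IgG2a tumour 1, with 20.3 against 4.76 to 7.38.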

How the results depend on the processing

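Of 1128 values recomputed for single genes, 1073 kept their direction and their side of the threshold, 20 lost a call, 11 gained one and 24 turned sign, all of the last without a call. The count of members called under IgG2a for knockdown was 0 in place of 5 without the 5 tumours of high GC slope, which leaves 2 tumours a group, and 4 to 5 over fits without 1 tumour. Under anti-PD1 the count was 3 to 5 over those fits. For shMdk anti-PD1 against shCtrl IgG2a it was 6 in each of them. For shMdk IgG2a against shCtrl anti-PD1 it was 3 with DESeq2 and 0 to 2 without 1 tumour, in place of 0. With the compared groups alone, Irgm1 had an adjusted p of 0.0544 under IgG2a. Tgtp1 under anti-PD1 in shMdk tumours (0.02) had -0.0081 with edgeR, -0.0023 with DESeq2, -0.10 without the 2 tumours high in Gm42418 and -0.34 to 0.36 without 1 tumour. Irgm2 in shMdk IgG2a against shCtrl anti-PD1 (0.21) had -0.33 without the 2 tumours, 0.59 without the 5 tumours and -0.16 to 0.56 without 1. With the GC slope as a covariate, its log2 fold change over shCtrl IgG2a was 2.00 in shMdk IgG2a and 0.65 in shCtrl anti-PD1 tumours, a wider gap than in the main fit. The difference of anti-PD1 effects for Irgm2 (-0.40) was 0.037 with edgeR, 0.050 with DESeq2, 0.94 without the 5 tumours and -0.93 to 0.16 without 1. Without the 5 tumours it was 0.051 for Igtp and 0.058 for Irgm1, and without 1 tumour -0.61 to 0.29 for Igtp, -0.90 to 0.16 for Iigp1 and -0.52 to 0.051 for Ifi47. Apart from the tumours left out, the cause of these shifts was not tested. A fit on the compared groups alone does not exist for the difference of effects. No paired analysis was possible because the tumour numbers follow accession order and mark no shared animal, batch or day. Tgtp1, with 5 reads in the whole shCtrl IgG2a group, is the member that depth limits most.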
